A study of Mus musculus with 12 samples.

Results

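The genes described here are named for the proteins of the cytosolic ribosome. They were taken by symbol: Rpl or Rps followed by a number (with an optional letter and digit), together with Rpsa, Rplp0, Rplp1 and Rplp2, leaving out the Rps6k kinases and symbols that contain "-ps". The rule found 84 of 18609 listed genes, 32 named for the small subunit and 52 for the large subunit, and used no measured value. GENCODE M21 annotates 82 of them as protein coding and 2, Rpl32l and Rpl6l, as processed pseudogenes. Of the 84, 83 reached 0.5 FPKM (fragments per gene, normalised to gene length and library total) in at least 3 libraries and were tested. The exception was Rpl3l, a paralogue of Rpl3 known from heart and skeletal muscle, with 2 to 23 fragments per library. The cytosolic ribosome proteins Fau, Rack1 and Rpl36al fall outside the symbol rule and are described with the other genes of translation.

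The study sequenced total RNA of tumours of MC38, a mouse colon carcinoma line, carried by wild-type C57BL/6 mice or by C57BL/6 mice with a TLR4 knockout. TLR4 is the receptor through which host cells sense bacterial lipopolysaccharide. Tumours were collected 1 day after an intravenous injection of PBS or of Salmonella, which gives 4 groups of 3 libraries; the titles name them F-1, M-1 or M-2. The Salmonella strain and dose, the tumour site and the meaning of F and M are not stated in the labels, and nothing there says that the libraries came from separate animals, so p-values measure only the spread between libraries. The knockout is a property of the host, and the labels describe the same MC38 line in every group.

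A ribosome is built from a small subunit, which reads the messenger RNA, and a large subunit, which joins amino acids, and each subunit carries its own set of proteins. The messenger RNAs of these proteins are among the most abundant of a growing cell, and most begin with a run of pyrimidines (a TOP tract) through which the mTOR pathway controls their translation. Several members have a second gene, a paralogue, whose protein can take the same place and which is often used by particular tissues.

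Promoter windows were read from RefSeq starts on GRCm38.p6 because the members share a sequence feature there that the symbol rule did not use. A start was listed for 63 of the 84 members, with 75 starts in all. A run of at least 8 pyrimidines (C or T) beginning with C, on the sense strand between 50 bases before and 50 bases after the start, was present at 59 of these starts (78.7%), against 28.8% of all 32851 listed starts. The windows below span 30 bases on each side of the start and show 4 core proteins of different roles, then the pair Rpl22 and Rpl22l1 and the paralogues Rpl39l and Rpl7l1, because the largest differences between members lay among these paralogues. Capitals mark the longest run of 8 or more C or T in the printed window, wherever it lies.
Rps12 (chr10:23787180-23787239, minus strand): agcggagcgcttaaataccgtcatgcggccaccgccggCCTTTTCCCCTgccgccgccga
Rps18 (chr17:33955636-33955695, minus strand): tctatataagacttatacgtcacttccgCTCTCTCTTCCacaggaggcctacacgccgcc
Rpl35 (chr2:39005102-39005161, minus strand): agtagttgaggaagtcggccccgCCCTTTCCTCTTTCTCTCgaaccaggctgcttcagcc
Rplp2 (chr7:141447621-141447680, plus strand): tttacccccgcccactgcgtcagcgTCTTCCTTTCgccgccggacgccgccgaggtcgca
Rpl22 (chr4:152325696-152325755, plus strand): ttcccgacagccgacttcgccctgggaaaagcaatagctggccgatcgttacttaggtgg
Rpl22l1 (chr3:28805478-28805537, plus strand): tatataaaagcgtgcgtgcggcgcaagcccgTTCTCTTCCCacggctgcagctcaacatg
Rpl39l (chr16:10170198-10170257, plus strand): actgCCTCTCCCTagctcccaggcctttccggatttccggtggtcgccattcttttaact
Rpl7l1 (chr17:46782627-46782686, minus strand): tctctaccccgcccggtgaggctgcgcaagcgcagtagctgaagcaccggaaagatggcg

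In Rps18, Rpl35 and Rplp2 the run crosses the listed start, in Rps12 it begins 9 bases into the transcript and in Rpl22l1 at base 2. The marked run of Rpl39l, 9 bases long, begins 26 bases before the listed start and so lies outside the transcript from that start. For Rpl22 (the first of 2 listed starts) and Rpl7l1 no run of 8 falls in the printed window, which says only that these letters are not there. CTTTCC, on the sense strand of the same 100-base stretch and often part of such a run, was found at 29.3% of the members' starts and 4.69% of all starts. CCGGAAG, the core letters recognised by ETS-family factors, was found on either strand of the full 300-base windows at 36.0% against 8.86%. CACGTG, the E-box that Myc binds, was found at 10.7% against 7.15%. The median log2 change after Salmonella in wild-type hosts, described below, was 0.79 in the 52 tested members with a pyrimidine run and 0.70 in the 10 without one.

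The members were highly expressed in every group. In wild-type hosts under PBS their FPKM, as deposited, summed to 86000, 94563 and 88015 in F-1, M-1 and M-2, which was 19.6% to 20.8% of the FPKM of all genes. After Salmonella the sums in wild-type hosts were 155703, 156772 and 100096, or 28.3%, 27.8% and 21.4% of all FPKM. Libraries F-1 and M-1 thus stood far above M-2, and M-2 was still above all 3 PBS libraries. In knockout hosts the sums were 78205, 82971 and 93262 under PBS and 110284, 102937 and 98220 after Salmonella, and these groups did not overlap either. The ratio of small-subunit to large-subunit FPKM stayed between 0.726 and 0.751 in all 12 libraries, so both subunits moved in step. Within the group of wild-type hosts given Salmonella the members' median coefficient of variation was 32.7%, against 15.6% over all tested genes; in the other groups it was 6.16% to 10.1%, against 7.89% to 10.02%.

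Gene by gene, Rplp1 had the highest mean over all libraries (3818 FPKM), followed by Rpl41 (3578), Rps18 (3170), Rplp0 (2648) and Rps2 (2645). The lowest tested members were Rpl39l (2.07), Rpl32l (3.70), Rps27l (50.5), Rpl7l1 (64.0) and Rpl6l (102.0), of which Rpl32l and Rpl6l are the annotated pseudogenes and the others paralogues. Rpl3l was listed at 0.0299 to 0.335 FPKM.

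**Figure D1:**
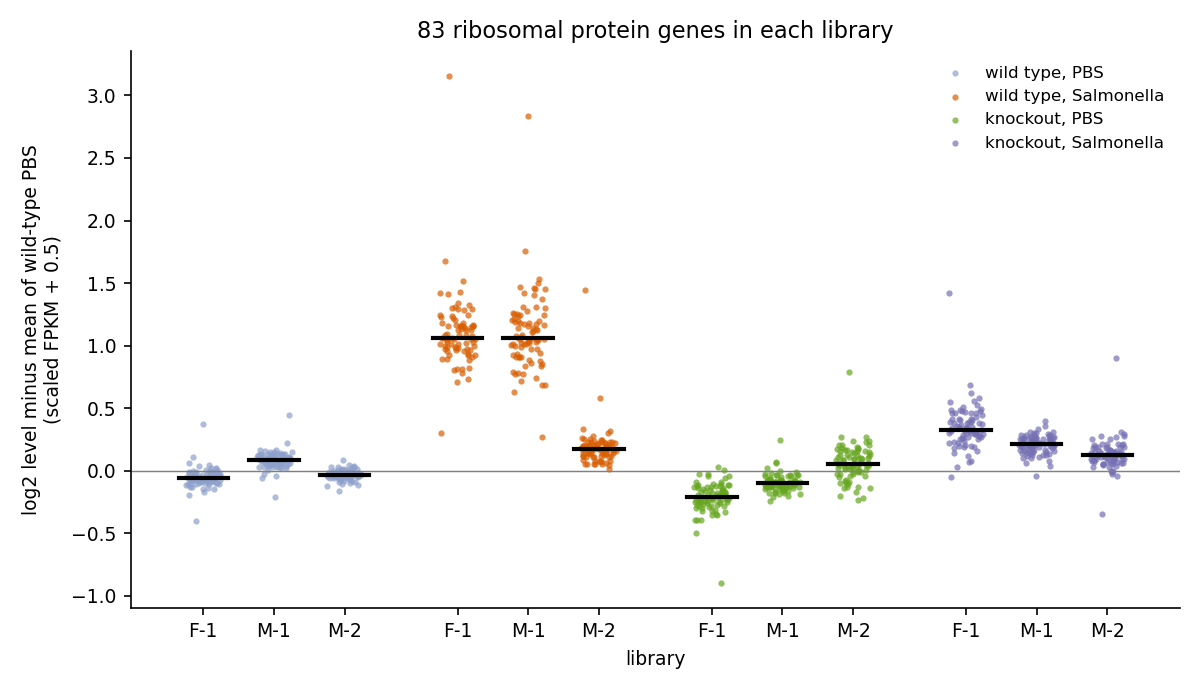
Log2 level of each of the 83 tested members in each library (scaled FPKM + 0.5), minus the mean of the 3 wild-type PBS libraries; points are genes, black lines are library medians, colours are groups. In the wild-type Salmonella group the medians of F-1 and M-1 lie at 1.06 and that of M-2 at 0.18, and those of the knockout Salmonella libraries between 0.12 and 0.33.

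Before the tests, libraries were scaled by trimmed means of log ratios over all genes, which gave factors of 0.844 in F-1 and 0.845 in M-1 of the wild-type Salmonella group. The other 10 factors were 1.001 to 1.049, and the libraries held 30511933 to 38764393 fragments. The scaling matters here: with FPKM as deposited, the wild-type response to Salmonella had a median log2 change of -0.19 over all tested genes, and of 0.57 instead of 0.78 over the members. Tlr4 itself was at 1.59 to 3.15 FPKM in knockout hosts and 2.48 to 3.78 in wild-type hosts, ranges that overlap, in tumours whose cancer cells are not described as deleted. All 7 epithelial markers (Krt8, Krt18, Krt19, Epcam, Cldn4, Cldn7 and Cdh1) were too low to be tested and summed to 0.446 to 2.53 FPKM per library, so these markers do not show the labelled colon cancer cell type. Summed neutrophil markers (10 genes) were 9.57 to 20.4 FPKM in wild-type PBS, 3048, 18775 and 2765 in wild-type Salmonella F-1, M-1 and M-2, 4.85 to 10.8 in knockout PBS and 529 to 949 in knockout Salmonella. Fewer cells of a type and less RNA per cell cannot be told apart in such tissue samples.

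Salmonella against PBS in wild-type hosts asked how the tumours of animals with the receptor responded. Ribosomal protein genes of both subunits were higher after Salmonella. By limma with Benjamini-Hochberg adjustment over all 12164 tested genes, 82 of the 83 tested members rose and 0 fell; over all tested genes, 19.2% rose. Their median log2 change was 0.78 (1.72-fold), from 0.25 for Rpl7l1 to 2.48 for Rpl39l, while the median of all tested genes was 0.00. For 67 members every scaled Salmonella value was above every PBS value, which was so for 23.4% of all tested genes. The member that did not pass was Rpl32l, an annotated pseudogene (0.76 ± 0.36 SE, adjusted p = 0.123); of the 81 tested members annotated as protein coding, 81 rose.

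All 32 small-subunit members rose, with a median of 0.80 and a range of 0.54 (Rps15a) to 1.13 (Rps12). Rps12 was at 711, 743 and 718 FPKM under PBS in F-1, M-1 and M-2 and at 1680, 1696 and 906 after Salmonella, a log2 change of 1.13 ± 0.26 (SE, limma adjusted p = 0.00865). Rps19, the gene most often mutated in the inherited anaemia named after Diamond and Blackfan, went from 696, 741 and 694 to 1532, 1544 and 845 FPKM (1.03 ± 0.25, adjusted p = 0.0105). In both genes every Salmonella library was above every PBS library, and M-2 was the lowest of the 3. Rps21 (1.01), Rps24 (1.00) and Rps28 (0.99) had the next largest log2 changes.

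Other small-subunit members with roles of their own moved less. Rps6, the substrate of the S6 kinases downstream of mTOR, was at 968, 1005 and 988 FPKM under PBS and at 1485, 1342 and 1125 after Salmonella (0.61 ± 0.18, adjusted p = 0.0202). The log2 change was 0.76 for Rps3, which lies at the entry of the messenger RNA channel, 0.77 for Rpsa, also known as the laminin receptor, and 0.75 for Rps27a, which is made as a fusion with ubiquitin; all 3 passed the test. Rps27l, a paralogue of Rps27 that is a target of Trp53, rose by 0.59 (41.8, 50.2 and 46.5 FPKM under PBS; 69.2, 64.4 and 49.7 after Salmonella). For Rps27a and Rps27l, as for Rps15a, Rps26 and Rps27, M-2 fell within the range of the PBS libraries after scaling.

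Of the 51 tested large-subunit members 50 rose, with a median of 0.77. Rpl41, which encodes a very short basic peptide, was at 2684, 2918 and 2792 FPKM under PBS and at 6106, 6258 and 3363 after Salmonella (1.06 ± 0.27, adjusted p = 0.0122). Rpl36 was at 674, 725 and 677 FPKM under PBS and at 1504, 1586 and 793 after Salmonella (1.04 ± 0.27, adjusted p = 0.0141). In both, F-1 and M-1 lay far above PBS and M-2 only slightly above it. Rpl5 and Rpl11, which together with a small ribosomal RNA bind the Trp53 regulator Mdm2, rose by 0.58 and 0.78. Rpl13a, known also from translational control in inflammatory myeloid cells, rose by 0.79.

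The stalk of the large subunit, which recruits the elongation factors, is formed by Rplp0, Rplp1 and Rplp2. Rplp0 was at 2280, 2237 and 2312 FPKM under PBS and at 3712, 3458 and 2634 after Salmonella (log2 change 0.71). Rplp1 was at 3196, 3323 and 3181 and then at 5926, 5788 and 3480 (0.81), and Rplp2 at 1498, 1532 and 1357 and then at 2966, 2931 and 1664 (0.95). All 3 passed the test, without overlap between the groups.

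The smallest changes among core members were those of Rpl3, near the catalytic centre (0.46), and Rpl4, which lines the exit tunnel (0.50). Rpl3 was at 945, 1024 and 953 FPKM under PBS and at 1288, 1223 and 998 after Salmonella, so that M-2 lay within the PBS range. Rpl7l1, a paralogue of Rpl7, was at 60.5, 59.5 and 66.01 FPKM and then at 62.0, 60.8 and 68.7; its deposited values overlap, and its log2 change of 0.25 (adjusted p = 0.0248) was 0.04 without the scaling (adjusted p = 0.681). Rpl3 too lost its call without the scaling (0.26, adjusted p = 0.0756).

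**Figure D2:**
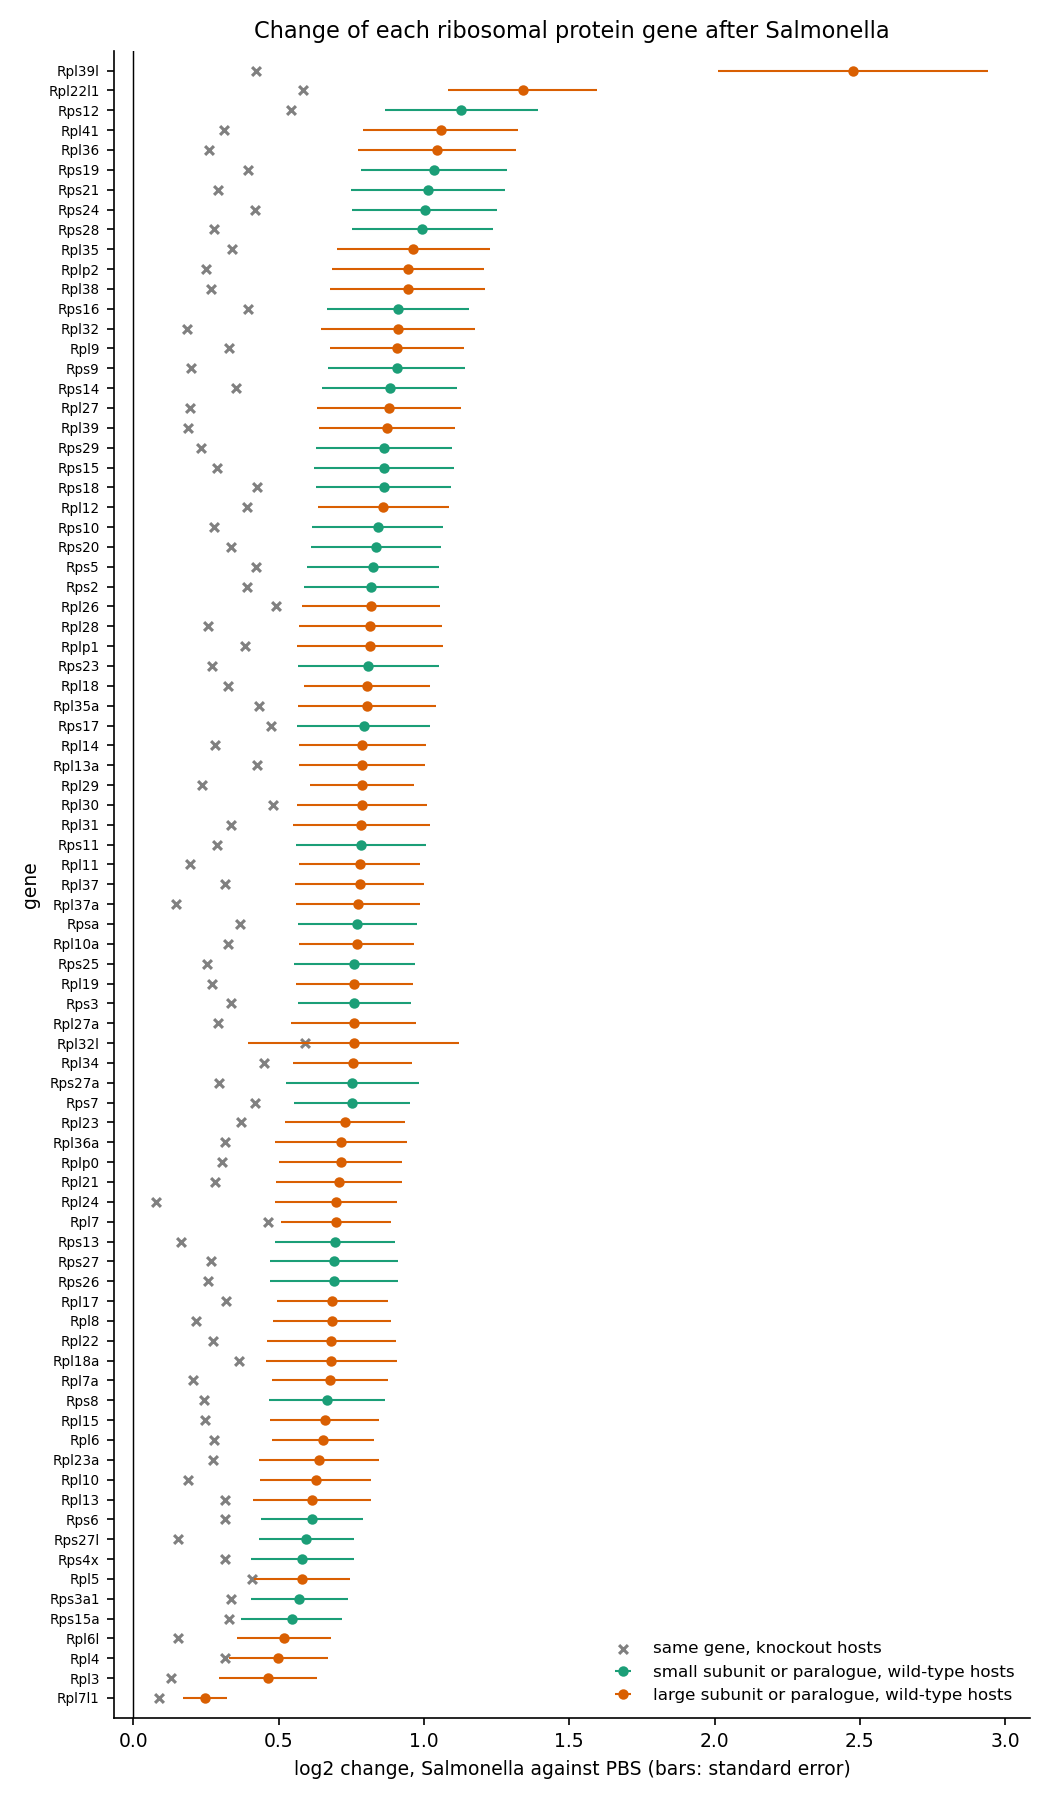
Log2 change after Salmonella for each of the 83 tested members (filled points with standard errors: wild-type hosts, coloured by subunit; crosses: knockout hosts), ordered by the change in wild-type hosts. All 83 points and all 83 crosses lie above 0, and Rpl39l (2.48) and Rpl22l1 (1.34) lead the wild-type order.

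The count of 82 depended on single libraries. With the low Salmonella library M-2 left out it was 83 (27.7% of all tested genes rose), with a median change of 1.07. Leaving out Salmonella F-1 gave 6 (9.76%) and leaving out Salmonella M-1 gave 7 (10.7%), shares of the members below those of all genes. Leaving out a wild-type PBS library gave 30 (F-1, 13.5%), 55 (M-1, 12.8%) or 19 (M-2, 11%). When only the 6 wild-type libraries were fitted, 3 members passed (Rpl39l, Rpl22l1 and Rpl29), against 11% of all tested genes, with the same changes but a spread estimated from these libraries alone.

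To see how members differed from each other, the libraries were also scaled to the median member, an alternative added after the data were seen. Relative to the other members, 8 then were higher after Salmonella in wild-type hosts and 3 lower, against 4.54% and 65.2% of all tested genes. The higher ones were Rpl39l (1.84), Rpl22l1 (0.56), Rps12 (0.35), Rpl41 (0.28), Rpl36 (0.27), Rps19 (0.25), Rps21 (0.23) and Rps28 (0.22), and the lower ones Rpl7l1 (-0.53), Rpl3 (-0.32) and Rpl4 (-0.28). The other 72 tested members did not pass in either direction.

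Ribosomal protein genes are short, and short genes in general were higher in the same libraries. Of the 83 tested members 54 were under 1 kb. Among the 689 other tested genes under 1 kb, the median log2 change after Salmonella in wild-type hosts was 0.46 and 46.4% rose, against a median of 0.81 in the 54 members. The medians of other genes were 0.22 at 1 to 2 kb, 0.02 at 2 to 4 kb and -0.15 above 4 kb, while those of the members were 0.74 (22 genes) and 0.64 (6 genes) in the middle classes and 0.54 for the single member above 4 kb, Rps15a. The members' median thus lay above that of other genes in each length class. By library, the median of other genes under 1 kb was 0.65 in F-1, 0.62 in M-1 and 0.14 in M-2, with M-2 the lowest as for the members. Over the 79 members above 100 FPKM, the change correlated with log2 gene length at r = -0.43 (rho = -0.49) in wild-type hosts and at r = 0.05 (rho = 0.14) in knockout hosts, where these genes share their libraries and are not replicates.

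**Figure D3:**
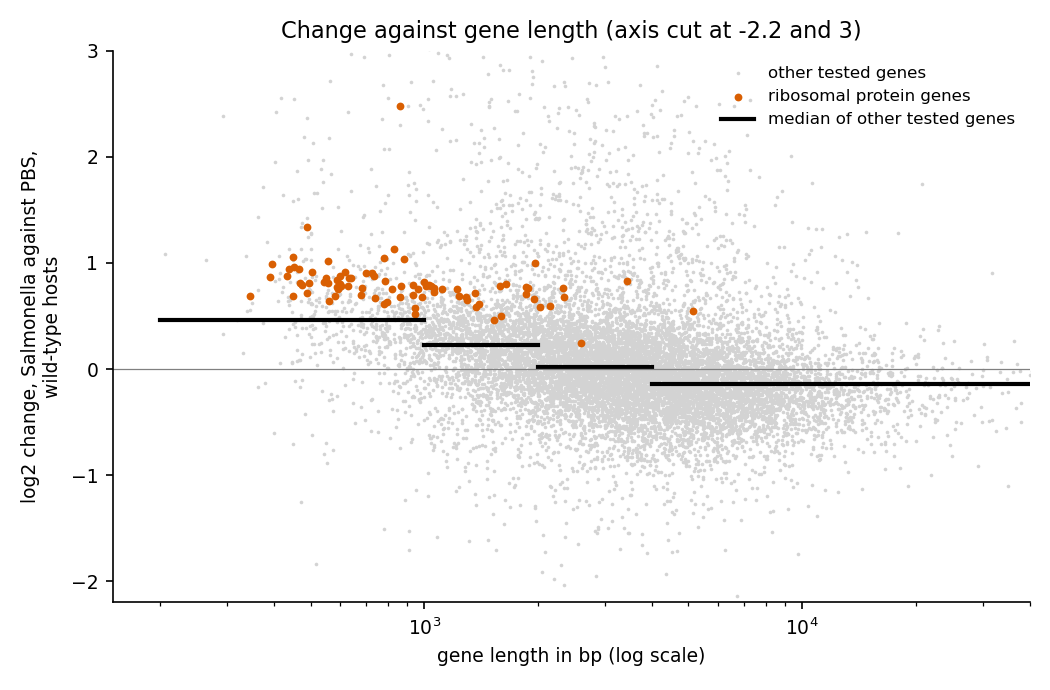
Log2 change after Salmonella in wild-type hosts (vertical axis) against gene length in bp (log axis), for the members (orange) and the other tested genes (grey); black lines are medians of the other genes in 4 length classes. The members lie mostly at the short end and above the medians of 0.46, 0.22, 0.02 and -0.15.

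When the trend of each library with gene length was removed, 51 members passed as higher and 0 as lower, against 16.5% of all tested genes, and their median change was 0.35. The median level relative to wild-type PBS was then 0.49 in F-1, 0.51 in M-1 and 0.07 in M-2. Rpl39l (2.07), Rps20 (0.87), Rps24 (0.87), Rps12 (0.71) and Rpl22l1 (0.70) had the largest changes on that scale, and Rps27 turned to -0.10 (adjusted p = 0.244). The low value of M-2 among the 3 Salmonella libraries was shared by some marker sums: erythroid and platelet markers (8 genes) were 521, 513 and 296 FPKM, fibroblast markers (5 genes) 1034, 1093 and 682, and skeletal muscle markers (6 genes) 91.4, 78.0 and 43.1 in F-1, M-1 and M-2. Under PBS the ranges were 38.6 to 75.2, 256 to 436 and 4.02 to 8.70. Among the wild-type Salmonella libraries M-2 was also the lowest for summed neutrophil, T-cell and epithelial markers, the epithelial ones too low to be tested. As deposited, M-2 was not the lowest for endothelial, macrophage and B-cell sums. Endothelial markers (5 genes, 4 of them higher after Salmonella) were at 56.8, 72.8 and 63.0 FPKM, and macrophage markers (8 genes) at 588, 338 and 671. Scaling raises F-1 and M-1 and lowers M-2, so the order of the endothelial sums may not hold on scaled values. The part of these cell types, of RNA quality and of the length trend in the members' change was not tested.

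Salmonella against PBS in knockout hosts asked for the response without the host receptor. All 83 tested members had a log2 change above 0, but 0 passed the test in limma and 0 by voom on recovered fragments; 0.427% of all tested genes rose. The median change was 0.31 (1.24-fold), and 3 members had an unadjusted p under 0.05: Rpl22l1 (0.58, adjusted p = 0.247), Rpl7 (0.46, adjusted p = 0.211) and Rpl5 (0.41, adjusted p = 0.206). For 54 members every Salmonella value was above every PBS value, which was so for 14.7% of all tested genes. Rps12, for example, was at 610, 657 and 745 FPKM under PBS and at 1068, 938 and 875 after Salmonella (0.54 ± 0.26, adjusted p = 0.282). Here the 3 Salmonella libraries lay close together, at medians of 0.33, 0.21 and 0.12 relative to wild-type PBS, and the PBS libraries at -0.21, -0.096 and 0.056. With the length trend removed, 78 of the 83 changes were above 0, the median was 0.19 and 0 passed. Among the 689 other tested genes under 1 kb the median change in knockout hosts was 0.13, against 0.29 in the 54 members of that length.

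All groups share 1 estimate of the spread, which the wild-type Salmonella group with its low M-2 library enters. Without that library 22 members passed in knockout hosts, against 3.34% of all tested genes, all higher and with the same changes; Rpl22l1 (0.58, adjusted p = 0.0208), Rps12 (0.54, adjusted p = 0.0176) and Rpl26 (0.49, adjusted p = 0.0246) led. When only the 6 knockout libraries were fitted, Rpl22l1 and Rpl7 passed, against 1% of all tested genes.

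Knockout against wild type under PBS compared the hosts before any bacteria. No member passed (0 of 83, and 0 by voom), 0% of all tested genes did, and 0 members had an unadjusted p under 0.05. The median log2 difference was -0.08. Rpl41, for instance, was at 2684 to 2918 FPKM in wild-type and 2607 to 3148 in knockout hosts, and Rplp0 at 2237 to 2312 and 1978 to 2656; in both genes the ranges overlap.

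Knockout against wild type under Salmonella compared the treated tumours of both hosts. All 83 members had lower means in knockout hosts, with a median log2 difference of -0.56. The test was passed by 2 of them, a smaller share than the 5.82% of all tested genes that were lower. Both are paralogues. Rpl22l1 was at 258, 274 and 148 FPKM in wild-type F-1, M-1 and M-2 and at 120, 117 and 123 in knockout hosts (-1.04 ± 0.26 SE, limma adjusted p = 0.0342). Rpl39l, known best from the testis, was at 7.53, 5.94 and 2.46 FPKM in wild-type and 2.33, 0.540 and 1.54 in knockout hosts (-1.72 ± 0.46, adjusted p = 0.0464). Neither gene's groups overlapped, and wild-type M-2 was the library closest to the knockout values in both. With wild-type Salmonella M-2 left out, 82 members were lower, against 21.5% of all tested genes, all but Rpl7l1. With FPKM as deposited 5 were lower (4.86%), by voom 1 was (2.90%), and with only the 6 Salmonella libraries 0 were (0.0658%). With the length trend removed 4 were lower (6.10%), the median difference was -0.25 and 1 member was above 0.

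The interaction, the knockout response minus the wild-type response, tests whether the 2 hosts differed. It was below 0 for all 83 members, with a median of -0.45, and 0 passed in limma or voom, with 1 at an unadjusted p under 0.05 (Rpl39l, -2.05, adjusted p = 0.259); 0.0247% of all tested genes were lower. A difference between the hosts in the response of these genes is therefore not shown by the 12 libraries. The shared direction also depended on the processing. With the length trend removed the median was -0.19, 13 members were above 0 and 0 passed. With FPKM as deposited 3 members were above 0. Over the 79 members above 100 FPKM, the interaction correlated with log2 gene length at r = 0.47. Without wild-type Salmonella M-2, 81 members passed, against 12.4% of all tested genes, with a median of -0.75; Rpl7l1 and Rpl32l did not. With the length trend removed as well, 39 passed, against 8.29%.

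Paralogue pairs were compared as log2 ratios within each library, which do not depend on the scaling. Rpl22l1, the paralogue of Rpl22, was at 32.1%, 35.03% and 32.95% of the Rpl22 level in FPKM under PBS in wild-type hosts and at 55.1%, 53.6% and 49.7% after Salmonella. In knockout hosts the values were 28.6%, 31.9% and 30.5%, then 36.5%, 36.2% and 40.4%. In both hosts every Salmonella library was above every PBS library, and here wild-type M-2 lay close to its group. The log2 ratio rose by 0.48 on average (0.66 in wild-type and 0.31 in knockout hosts; exact permutation test within hosts, two-sided, p = 0.005, the smallest that 400 arrangements allow, adjusted over 8 tests to 0.02). It was lower in knockout than in wild-type hosts by 0.31 on average, -0.14 under PBS and -0.48 after Salmonella (exact p = 0.005, adjusted 0.02). Both genes had risen in wild-type hosts, Rpl22 by 0.68 and Rpl22l1 by 1.34, so the ratio records the larger rise of the paralogue. The gene lengths differ, 489 bp for Rpl22l1 and 2343 bp for Rpl22; other genes under 1 kb were higher after Salmonella, and the part of length in this ratio was not tested.

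The other pairs differed. The Rpl7l1 to Rpl7 log2 ratio decreased by 0.41 after Salmonella (exact p = 0.01, adjusted 0.0267), with Rpl7l1 at 4.09% to 4.71% of Rpl7 under PBS in wild-type hosts and at 2.91%, 2.75% and 4.36% after Salmonella. In knockout hosts it went from 4.91% to 5.56% under PBS to 3.86% to 4.14%, without overlap, whereas wild-type M-2 lay among its PBS libraries. Rpl7l1 is the longer gene of this pair (2606 against 934 bp). The call was lost when F-1 or M-2 of wild-type PBS was left out (adjusted p = 0.0667 by the same exact test). Permuting libraries within replicate labels gave an adjusted p of 0.0833 for this pair and for Rpl22l1/Rpl22 alike. The smallest p allowed there is 0.0312, which at least 5 of the 8 tests would have to reach to pass. That permutation therefore says nothing about the stability of either pair. The Rpl39l to Rpl39 log2 ratio was 0.94 higher after Salmonella (exact p = 0.035, adjusted 0.07), 1.64 in wild-type and 0.25 in knockout hosts, and did not pass after adjustment. Rpl39l rests on 14 to 217 fragments per library, and its level stayed under 0.3% of that of Rpl39. The Rps27l to Rps27 log2 ratio differed by -0.10 (exact p = 0.12, adjusted 0.16). Rpl10l and Rps4l, the other paralogues of the planned comparison, were not analysed here, and Rpl3l was too low.

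**Figure D4:**
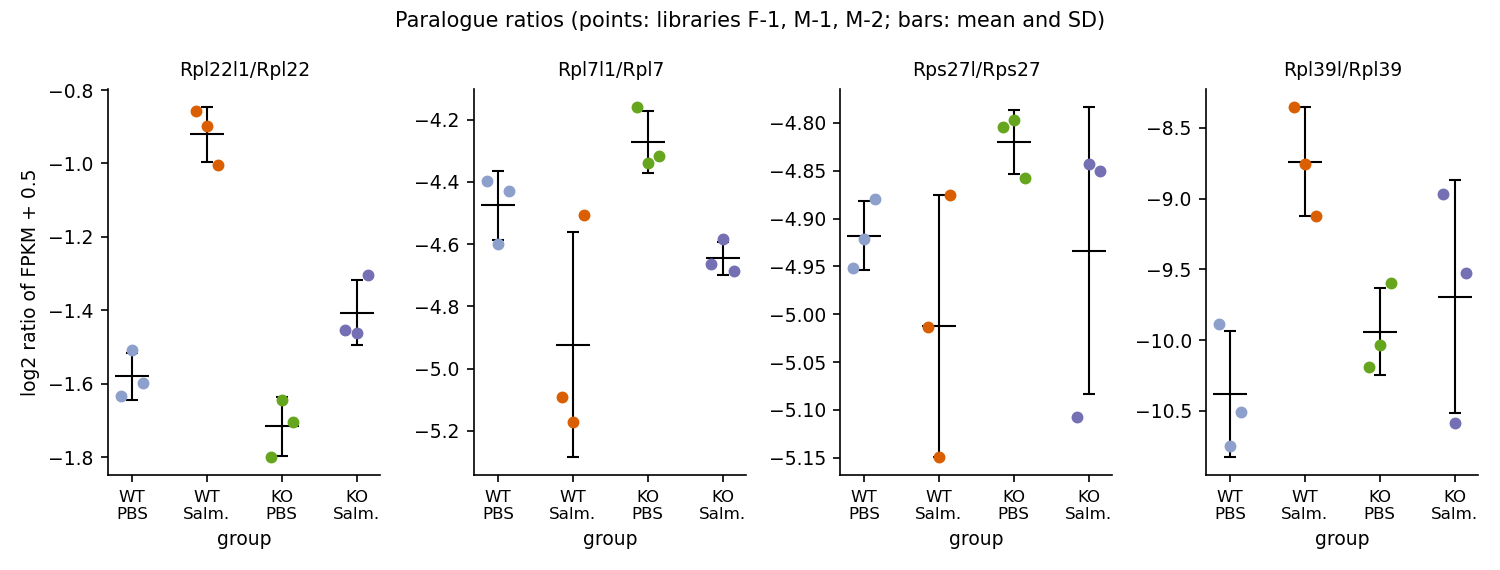
Log2 ratio of paralogue to main gene (FPKM + 0.5) in each library for 4 pairs, by group (WT wild type, KO knockout); points are the libraries, with F-1 on the left and M-2 on the right, bars are mean and SD, and the vertical axes differ. Rpl22l1/Rpl22 separates Salmonella from PBS in both hosts, from -1.58 to -0.92 in wild-type and from -1.72 to -1.41 in knockout hosts.

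Ribosomal protein genes have many processed copies in the genome, and reads could be shared with them. GENCODE M21 (GRCm38) names 294 such pseudogenes for 56 of the 84 members, with 24 for Rps12. Of the copies in the files, the highest was Rpl34-ps1, at 77.7 to 206 FPKM, whose change in wild-type hosts (1.07, adjusted p = 0.00812) had the direction of the members. How the authors' counting split reads between copies is not given in the sources used here, so single-gene levels of members with copies, and of Rpl32l and Rpl6l themselves, are uncertain.

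The other genes of the translation machinery were read from lists fixed by gene name. Of the cytosolic ribosome proteins outside the symbol rule, Rpl36al, a close copy of Rpl36a, rose in wild-type hosts by 0.65, Fau, made as a fusion with a ubiquitin-like protein, by 0.84, and Rack1, a scaffold on the small subunit, by 0.58. With the length trend removed these changes were 0.030, 0.22 and 0.31, and none of the 3 passed by limma (adjusted p = 0.717, 0.105 and 0.0588). Over all tested genes 19.2% rose and 16.2% fell in the same comparison. Of 8 elongation factors 4 rose and 0 fell (median 0.52), Eef1b2 by 0.75 and Eef1e1 by 0.76. Of 34 initiation factors 14 rose and 0 fell (median 0.32), among them Eif2s2, a subunit of the factor that brings the initiator tRNA (0.72), and Eif3m (0.65). Of 5 other transcripts with a TOP tract, Tpt1 (0.73) and Npm1 (0.80) rose. The medians of the lists of elongation factors, initiation factors and other TOP transcripts lay below the members' 0.78 and above the 0.00 of all tested genes. With the length trend removed this order changed: elongation factors (0.40) and other TOP transcripts (0.37) lay above the members' 0.35, and initiation factors (0.28) below it. With wild-type Salmonella M-2 left out, the counts that rose were 7 of 8, 23 of 34 and 5 of 5. The share of all tested genes that rose was then 27.7%, instead of 19.2%.

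Ribosome biogenesis genes also rose: 34 of 42, against 19.2% of all tested genes, with 0 lower and a median of 0.48. Gnl2, a GTPase of large-subunit assembly, was at 10.2, 10.6 and 10.2 FPKM under PBS and at 14.5, 12.7 and 13.3 after Salmonella (0.57 ± 0.09, adjusted p = 0.00214), and Riok2, a kinase of small-subunit maturation, at 24.8, 23.7 and 23.9 and then at 32.2, 29.7 and 32.4 (0.58 ± 0.10, adjusted p = 0.00217). In both genes M-2 lay between or above the other Salmonella libraries as deposited, and was the lowest of them after scaling. Of 12 genes of RNA polymerase I and its factors 5 rose, against the same 19.2%, led by Taf1d (1.25) and Taf1a (0.69). Taf1a also rose in knockout hosts (0.70, limma adjusted p = 0.0433), where 0 of the 42 biogenesis genes passed and 0.427% of all tested genes rose. With wild-type Salmonella M-2 left out, 8 biogenesis genes rose in knockout hosts, against 3.34% of all tested genes. With the length trend removed the medians in wild-type hosts were 0.44 for biogenesis and 0.33 for RNA polymerase I and its factors, against 0.35 for the members. In that setting 29 of 42 and 7 of 12 were higher, against 16.5% of all tested genes.

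Mitochondrial ribosomal proteins, which build the separate ribosome of that organelle, gave 38 of 78 higher and 0 lower with a median of 0.30; Mrpl22 (0.75) and Mrpl17 (0.53) had the smallest p-values. With wild-type Salmonella M-2 left out 58 were higher, against 27.7% of all tested genes. With the length trend removed their median was 0.089, with 17 higher and 8 lower, against 16.5% and 13.9% of all tested genes. Of 16 genes of the mTOR pathway and TOP regulators 1 rose (Rheb, the GTPase that activates mTOR, 0.39) and 4 fell, among them its inhibitor Tsc1 (-0.34), against 19.2% and 16.2% of all tested genes. The median of the 16 genes was -0.13, and the activity of the pathway was not tested. With the length trend removed, 2 of the 16 were higher and 1 lower, against 16.5% and 13.9%. Of 8 tested genes of the Myc network 1 rose and 2 fell: Mxd1, a Myc antagonist known from granulocyte differentiation, by 2.38, and Mxd3 and Mnt by -0.58 and -0.59. Myc itself was 0.26 higher (adjusted p = 0.114) and did not pass.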

How the data were processed

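Members, gene lists and tests were chosen with earlier results of these data known. The authors deposited 1 table per library, and the values were taken as FPKM. For each gene, a length was searched that gives whole fragments in every library. Of the genes with such a length, 99.98% were within 0.01 fragments, a share that the search itself largely sets. Gene lengths and fragment counts in the text come from this search. TRIzol extraction and a VAHTS Universal V6 library kit are given per the labels' protocols; fastp, HISAT2 and HTSeq are named in the submitters' processing notes, with no role or version. Build, annotation and strand setting were not given in the sources used here.

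Log2(FPKM / scaling factor + 0.5) was fitted with limma 3.58.1 (R 4.3.3; trend, robust, two-sided) to all 12 libraries with 1 mean per group, for the 12164 genes that reached 0.5 FPKM in 3 or more libraries. Fold changes are on that log2 scale and understate changes of low genes. Factors were trimmed means of log ratios (30% of ratios, 5% of levels). P-values were Benjamini-Hochberg adjusted over all tested genes, with 0.05 as threshold. Per-library FPKM in the text are as deposited. The design had named a count test only for count files. The fit was tested on simulated data. Paralogue ratios used exact permutation within hosts or treatments. Alternatives were median-of-ratios or no scaling, scaling without the members, pseudocounts of 0.1 and 1, the replicate label as a block, no filter on low values, a fit of the compared groups alone, voom on recovered fragments, removal of the length trend, and each library left out. Promoters came from RefSeq (GRCm38.p6).

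Named genes were, for each comparison, up to 6 called members with the largest rise and fall, the 5 highest and 5 lowest members, paralogue pairs, members with a known second role, untested members, the 2 genes of each companion list with the smallest p, and Tlr4. Other names, such as Fau, Rack1, Rps21, Rps28, Rpl26, Rpl29, Mxd3, Myc and genes ordered on another scale, were chosen after their values were seen; 1 gene of a companion list is not reported here. The depth gives a value of 3 fragments in a 1 kb gene of 0.0774 to 0.0983 FPKM; this covers counting error only.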

Additional observations from a re-analysis of the deposited data

How the results depend on the processing

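The number of members called in wild-type hosts (82) was 80 to 82 with other scalings or voom, 81 at a pseudocount of 1 and 79 without a filter. It was 3 with only the groups compared, 51 with the length trend removed and 6 to 83 with 1 library left out. With scaling to the median member (an alternative added after seeing the data), it was 11: 8 higher and 3 lower, against 4.54% and 65.2% of all tested genes. In knockout hosts it was 0, 2 with only the groups compared, 0 to 22 with 1 library left out, and 25 with the length trend and wild-type Salmonella M-2 both removed (3.47% of all tested genes rose). For knockout against wild type under Salmonella (2) it was 5 with FPKM as deposited, 1 at a pseudocount of 0.1, 0 without a filter, 0 with only the groups compared, 1 by voom (2.90% of all tested genes were lower), 4 with the length trend removed (6.10%), 68 with that and M-2 removed (18.5%), and 0 to 82 with 1 library left out; all tested genes gave 355 higher and 708 lower calls, 834 and 591 as deposited. Under PBS it was 0 in every alternative. The interaction gave 0, 0 to 81 with 1 library left out and 39 with the length trend and M-2 removed. Leaving out 1 library gave paralogue log2 differences of 0.46 to 0.51 (Rpl22l1/Rpl22), -0.51 to -0.35 (Rpl7l1/Rpl7), 0.76 to 1.17 (Rpl39l/Rpl39) and -0.14 to -0.061 (Rps27l/Rps27). The Rpl39l/Rpl39 difference passed without knockout Salmonella M-1 (1.17, adjusted p = 0.02), Rps27l/Rps27 with the wild-type Salmonella library M-2 left out (-0.14, adjusted p = 0.024), and Rpl7l1/Rpl7 no longer passed when F-1 or M-2 of wild-type PBS was left out (-0.39 and -0.40, adjusted p = 0.0667). The causes were not tested.

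Scaling to the median member, which centres the members by construction, turned 14 named members below 0 in wild-type hosts: Rpl10 (-0.15), Rpl22 (-0.10), Rpl3 (-0.32), Rpl5 (-0.20), Rpl7 (-0.083), Rpl7l1 (-0.53), Rplp0 (-0.066), Rps27 (-0.088), Rps27a (-0.026), Rps27l (-0.18), Rps3 (-0.019), Rps4x (-0.20), Rps6 (-0.17) and Rpsa (-0.0080). Rps27 was also below 0 with the length trend removed, at -0.10 alone, with the replicate block and without M-2.

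Correlations of deviations from group means between libraries with the same replicate label were -0.33 to 0.40. Libraries with different labels were not compared, so these values cannot decide whether the labels pair the libraries. With the label as a replicate block 81 members were called in wild-type hosts (19.1% of all tested genes rose; 46 and 16.7% with the length trend removed as well), 0 in knockout hosts, 1 for knockout against wild type under Salmonella (5.84% lower), and 0 for the interaction and under PBS. Permuting within blocks gave the same paralogue differences, 0.48 for Rpl22l1/Rpl22 and -0.41 for Rpl7l1/Rpl7, with an adjusted p of 0.0833 for each. The 64 arrangements allow no p below 0.0312, so over 8 tests at least 5 would have to reach it to pass; 3 did, and the lost calls say nothing about stability.

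Limits: the 3 libraries of wild-type hosts given Salmonella differ more than those of any other group, the length trend and the scaling factors move with the same libraries, and tissue RNA mixes cell types. Depth is not limiting for members above 50 FPKM.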
